A study of Mus musculus with 2 samples.

Results

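The genes described here encode the enzymes that oxidise, reduce, hydrolyse and conjugate drugs and other foreign compounds. They were chosen by the gene name on the array, as the cytochrome P450 families Cyp1 to Cyp4, the aldehyde dehydrogenases (Aldh), the aldo-keto reductases (Akr), the carbonyl reductases (Cbr), the quinone oxidoreductases (Nqo), the flavin monooxygenases (Fmo), the carboxylesterases (Ces), the UDP-glucuronosyltransferases (Ugt) and the sulfotransferases (Sult). Glutathione transferases were left out. The names gave 141 genes, read by 198 probes, among 27676 genes on the array. Of the 141 genes, 44 (31.2%) were measured, against 28.3% of all genes. A gene counted as measured where the population with the brighter signal was well above background on both arrays.

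RNA came from the pylorus, the outlet of the stomach. The mice were of the Lgr5-EGFP-ires-CreERT2 knock-in line and carry GFP and a Cre recombinase at the Lgr5 locus, so that GFP follows the activity of the Lgr5 promoter. Pyloric tissue from 20 mice (20 stomachs) was pooled, dissociated with trypsin and sorted into cells with high GFP (GFPhigh) and cells with low GFP (GFPlow). Both populations carry the knock-in allele, neither is free of GFP by its label, and no treatment, age or sex is given in the sources used here. With 1 RNA per population on 2 Agilent arrays in a dye swap, the arrays repeat 1 measurement. The difference therefore has no replicate check, no test was possible, and each SD below covers technical error only.

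Values are log2 ratios of GFPhigh over GFPlow, so that a negative value is lower in GFPhigh. GFPhigh was labelled with Cy3 on array 1 and with Cy5 on array 2. In bulk RNA, fewer cells of a type and less RNA per cell cannot be told apart. The sorted gene Lgr5 had a ratio of 2.33 on array 1 and 2.24 on array 2 (mean 2.28 ± 0.07, 4.86-fold higher in GFPhigh). In a given population and array, signal well above background was seen at 18.7% to 31.7% of the gene probes' spots, none of which was saturated, and the number of arrays limits the precision.

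Phase I enzymes add or uncover a reactive group on a compound, mostly by oxidation, reduction or hydrolysis, and conjugating enzymes then attach glucuronic acid or sulfate, which makes the product more soluble and easier to export. Cytochromes P450 use electrons from P450 reductase. Aldehyde dehydrogenases, aldo-keto reductases, carbonyl reductases and quinone oxidoreductases act on aldehydes, ketones and quinones, many of them products of the cell's own metabolism. The liver is the main site of this system, and the epithelium of the gut holds a smaller set of the same families.

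Among the 44 measured genes, 8 were at least 2-fold lower in GFPhigh on each array (Akr1b8, Cyp2c65, Cyp2c66, Ugt1a6b, Cyp2d26, Sult1b1, Akr1c14 and Sult1d1) and 1 was at least 2-fold higher (Aldh6a1). Over all 7828 measured genes, 2.71% passed the same threshold lower in GFPhigh and 1.79% higher. The median ratio of the measured enzymes was -0.30 (-0.24 on array 1 and -0.35 on array 2), against -0.06 for all measured genes. Ratios below 0 were seen for 28 of the 44 genes (63.6%), against 55.7% of all genes. On both arrays 25 of the enzyme genes lay below 0 and 9 above it, and 10 changed sign between the arrays. These counts by array were not taken over all genes, so they have no share to be set against.

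The zero point depends on the scaling. Loess sets the average gene near 0. Centring on the array median leaves out the loess correction for dye bias that varies with brightness, so it changes more than the zero point. Ratios could move in opposite directions on the arrays, as for Akr1a4 from 0.80 and -0.19 with loess to 1.12 and -2.01. The median of all genes shifted by -0.46 in the mean of the arrays. Centring on spike-in RNA keeps loess and subtracts a constant on each array, and it shifted that median by -0.78. The split of the enzymes, 1 higher and 8 lower in GFPhigh with loess, was then 0 and 10 with median centring and 0 and 18 with spike-in centring. For all genes the split of 140 higher and 212 lower became 10 and 214, and 23 and 1313. Of 16 enzymes above 0 with loess, 7 stayed above 0 with median centring and 2, Aldh6a1 and Aldh1l1, with spike-in centring. Directions given below as higher in GFPhigh are thus relative to the average gene, and among the enzymes only Aldh6a1 and Aldh1l1 had a mean ratio above 0 under all 3 scalings, with arrays that disagreed in sign for both under median centring and for Aldh1l1 also under spike-in centring.

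**Figure D1:**
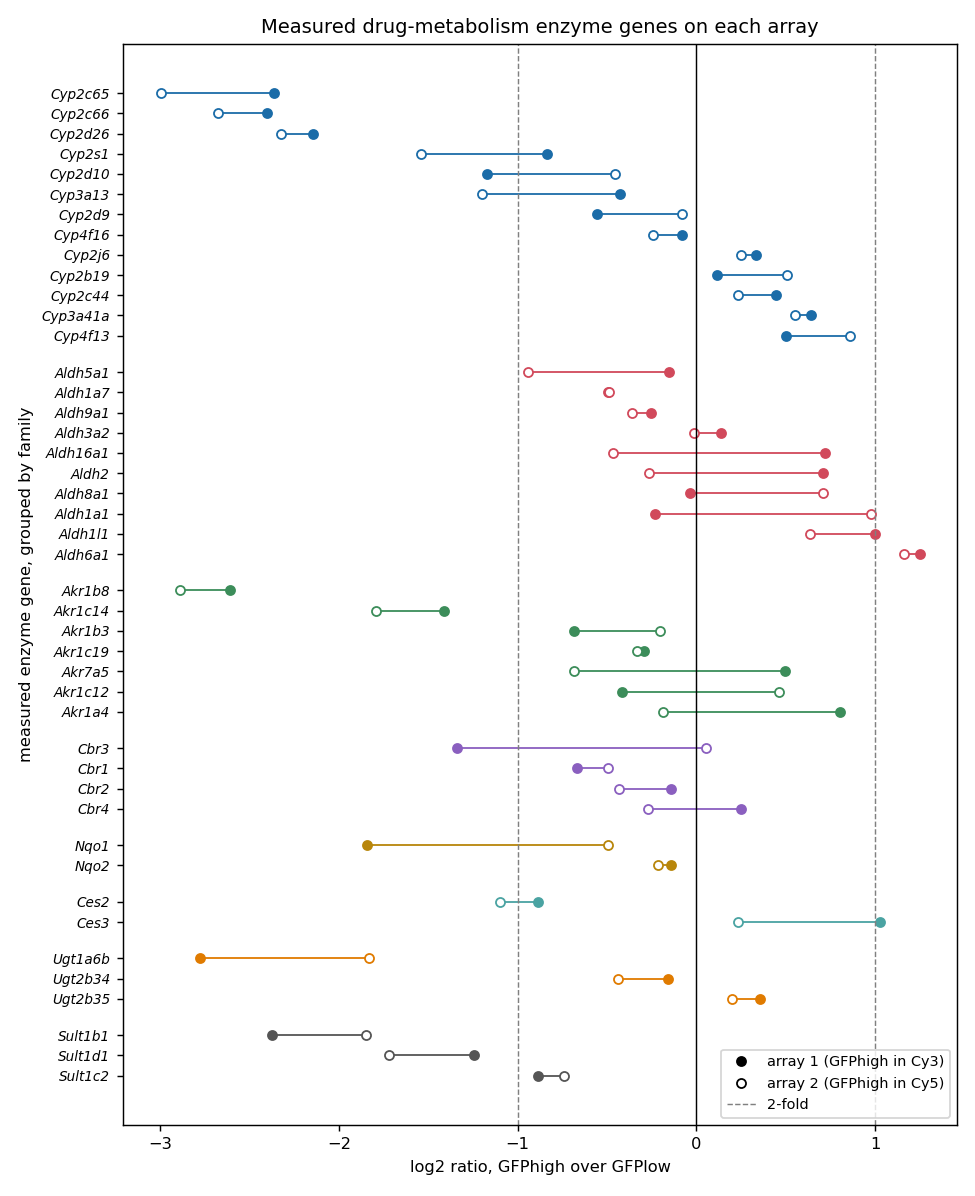
Log2 ratio of GFPhigh over GFPlow (horizontal axis) for each of the 44 measured enzyme genes, grouped by family, with loess scaling. Filled circles are array 1, open circles array 2, the line joins both, and dashed lines mark 2-fold. The genes with both circles left of -1 are the 8 named above, and Aldh6a1 is alone in having both right of 1.

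**Figure D2:**
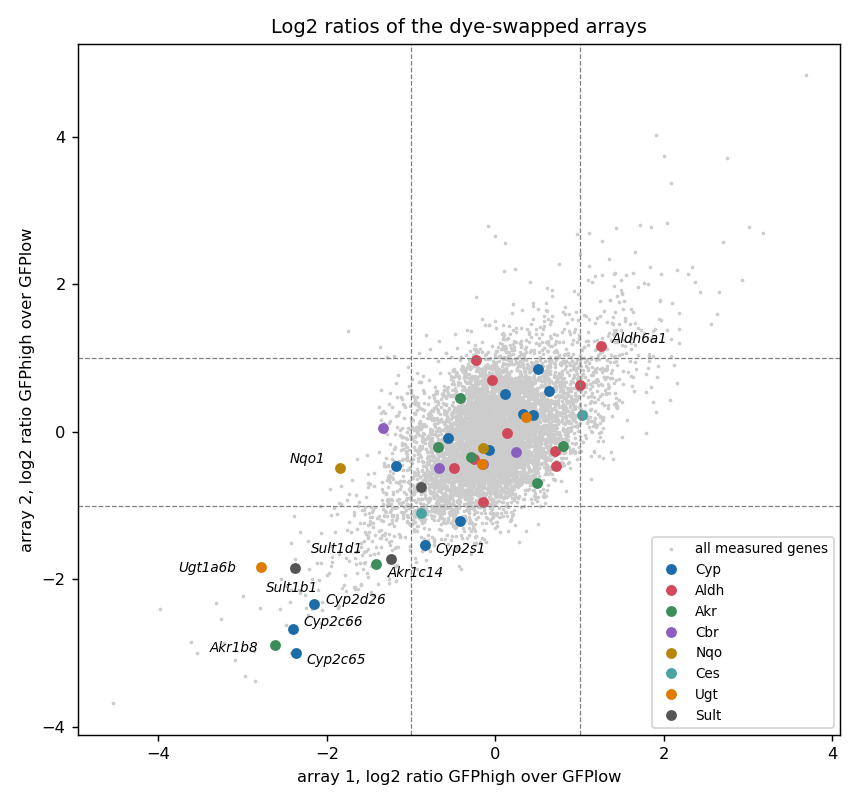
Log2 ratio on array 1 against array 2 for all 7828 measured genes (grey) and the 44 enzymes (coloured by family), with dashed lines at 2-fold. The 8 enzymes lower in GFPhigh lie in the lower left corner, while Nqo1 lies at -1.84 on array 1 and -0.49 on array 2.

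Across the 44 enzymes Pearson's r between the arrays' ratios was 0.81 and Spearman's rho was 0.73, as a description over genes that share the same RNA. Array 1 minus array 2 had an SD of 0.64 over the enzymes and of 0.56 over all kept probes.

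Cell type markers were read on the same arrays. The 4 surface mucous (pit) cell genes Muc5ac, Tff1, Gkn1 and Gkn2 were all at least 2-fold lower in GFPhigh (median -2.76), with a summed log2 level of 14.1 and 14.7 in GFPhigh and 17.9 and 17.3 in GFPlow on arrays 1 and 2. Of 6 enteroendocrine genes 5 were lower (median -1.57, summed level 11.5 and 11.9 against 14.1 and 14.0), as were all 4 proliferation genes (median -2.04, summed level 11.0 and 11.1 against 13.1 and 13.0). Of 2 measured tuft cell genes 1 was lower (median -0.92), and Dclk1, Trpm5 and Pou2f3 were not measured. The summed level of all 5 tuft cell genes was 9.05 and 9.13 in GFPhigh against 9.56 and 9.79 in GFPlow. Of 5 intestinal absorptive markers, Fabp2 was lower at -2.36, Vil1 was at 0.14, and Alpi, Apoa1 and Cdx2 were not measured. The summed level of all 5, with the genes not measured included, was 11.9 and 11.3 in GFPhigh and 11.7 and 12.2 in GFPlow. In the other direction, 3 of 4 chief cell genes (median 2.77, summed level 17.04 and 17.64 against 14.59 and 14.18), 2 of 4 neck and gland mucous genes (median 2.28, summed level 19.2 and 20.0 against 17.6 and 16.6) and 1 of 3 parietal cell genes (median 0.76, summed level 12.4 and 12.4 against 11.1 and 11.2) were higher in GFPhigh, while the chief cell list's Chia1 was lower at -4.11. With loess the pit, enteroendocrine, proliferation, tuft and intestinal absorptive medians lay below 0, as did the 8 enzymes lower in GFPhigh. The chief, neck and gland mucous and parietal medians lay above 0, as did Aldh6a1. The part of these lists in the enzyme ratios was not tested. The hepatocyte markers Alb and Cyp7a1 were not measured, and Ttr was at 0.42. Of the leukocyte list Fcer1g was at -0.12, and Ptprc, Cd68, Cd3e and Cd79a were not measured. Of the fibroblast list Col1a2 was at 0.07 and 1.13 (mean 0.60), and Col1a1, Pdgfra and Dcn were not measured. The summed level of all 4 fibroblast genes was 8.92 and 9.32 in GFPhigh against 8.87 and 8.63 in GFPlow. Egfl7 of endothelium was at -0.62, with Pecam1 and Cdh5 not measured, and Acta2 of smooth muscle at -0.55, with Myh11 and Des not measured. Lor of squamous epithelium was at 0.83 and 0.97 (mean 0.90), with Krt5, Krt14 and Krt13 not measured.

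The cytochromes P450 were the largest family, with 65 genes on the array and 13 measured. Of these 13, 3 were at least 2-fold lower in GFPhigh, 0 higher, and the family median was -0.32. The 3 were Cyp2c65 and Cyp2c66, members of the CYP2C group that oxidises drugs and arachidonic acid and is known from the gut, and Cyp2d26, of the CYP2D group. Their probes are shown by the first 30 of 60 bases, to identify the transcript each one reads.
Cyp2c65: gtctgcaattccctatgctatgcaatgatt
Cyp2c66: tctctgaccctatcaccagagttctgggat
Cyp2d26: ctatcagctctgtgcagtggctcgatagca

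On the mm9 build named in the file headers, the Cyp2c65 probe lies at chr19:39168290-39168349 and the Cyp2c66 probe at chr19:39261183-39261242, 92.9 kb further on. The Cyp2d26 probe lies at chr15:82620575-82620634. No annotation of that build was used here, so the exon or UTR of a probe is not given.

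Cyp2c65 had a log2 level of 8.65 and 8.45 in GFPhigh on arrays 1 and 2, and of 11.01 and 11.45 in GFPlow. Its ratio was -2.37 on array 1 and -2.998 on array 2 (mean -2.68 ± 0.45), or 6.42-fold lower in GFPhigh. For Cyp2c66 the levels were 7.85 and 7.89 in GFPhigh and 10.25 and 10.57 in GFPlow, with ratios of -2.40 and -2.68 (mean -2.54 ± 0.19, 5.82-fold). In both genes the GFPhigh levels lay more than 2 log2 units under either GFPlow level, and GFPhigh was still above background. The files list a shared transcript record for these probes, so reads of each gene by the other's probe cannot be told apart from the gene's own. The third measured CYP2C gene, Cyp2c44 (now Cyp2c23), whose probe is 4818 kb from that of Cyp2c66, was at 0.34 with loess, and it was below 0 at -0.21 with median centring and -0.44 with spike-in centring.

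The Cyp2c65 and Cyp2c66 probes gave similar ratios, but with a shared record it is not established that both genes differed. The promoters of both genes were set side by side to describe the sequences only. In the RefSeq table on GRCm38.p6 the 120 bases before the Cyp2c65 start lie on the plus strand at chr19:39060886-39061005. At the shift with most identical bases over the whole window, the matching Cyp2c66 stretch is chr19:39113790-39113909. Capitals mark the 10 of 120 bases that differ between them.
Cyp2c65: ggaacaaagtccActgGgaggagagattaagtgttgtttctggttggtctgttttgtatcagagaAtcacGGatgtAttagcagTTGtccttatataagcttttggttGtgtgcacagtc
Cyp2c66: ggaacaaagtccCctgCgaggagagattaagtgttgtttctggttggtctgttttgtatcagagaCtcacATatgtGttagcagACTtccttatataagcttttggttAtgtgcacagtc

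The start sites in the table are 12 bases apart in this comparison. Over the 288 bases that can be compared without gaps, 198 (68.8%) were identical. The window from 250 bases before to 50 after the start holds the letters TGACNNNGC, the core of the antioxidant response element, in both genes, as GCACAGTCA on the strand shown, with its last base just past the stretches printed.

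Cyp2d26 had levels of 8.18 and 8.34 in GFPhigh and 10.33 and 10.67 in GFPlow. The ratios were -2.15 and -2.33 (mean -2.24 ± 0.13, 4.71-fold lower in GFPhigh), which differed little between the arrays. Its relatives in the same cluster on chromosome 15 had smaller ratios. The Cyp2d9 probe, 334 kb away, gave -0.56 and -0.08, and the Cyp2d10 probe, 53.4 kb further on, gave -1.17 and -0.46. Cyp2d10 was not well above background in GFPhigh on either array. Its 1.76-fold difference is a bound for the mean of the arrays, and array 2 alone lay under it. The median over Cyp2d26, Cyp2d10 and Cyp2d9 was -0.82.

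Cyp2d9 was read by a pair of probes that overlap by 27 bases, shown in capitals at the end of the brighter probe and the start of the other.
Cyp2d9, brighter probe: ccgCTTCCATCCTGAACACTTCCTGGATGC
Cyp2d9, other probe: CTTCCATCCTGAACACTTCCTGGATGCcca
The brighter probe gave a mean of -0.32. The other gave -0.78 and -0.49 and was not well above background in GFPhigh on either array. Its 1.55-fold difference is a bound for the mean of the arrays. RefSeq records listed for these probes also name Cyp2d11, Cyp2d22 and, for the second, Cyp2d34, so the values may hold reads of these genes.

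The other P450 genes did not pass 2-fold on both arrays. Cyp2s1, a P450 of epithelia that dioxin induces, missed the threshold on array 1 only. Its levels were 11.08 and 10.75 in GFPhigh and 11.92 and 12.29 in GFPlow, with ratios of -0.84 and -1.54 (mean -1.19 ± 0.50). Cyp3a13, of the CYP3A group, was at -0.42 and -1.20. At the other end, Cyp4f13, of a group that hydroxylates fatty acids and leukotrienes, was the highest P450 at 0.50 and 0.86 (mean 0.68 ± 0.25), and it was -0.10 with spike-in centring. Cyp2b19 (0.31), Cyp2j6 (0.29) and Cyp3a41a (0.60) lay above 0 on both arrays with loess, while all 3 were below 0 with spike-in centring and Cyp2j6 also with median centring. Cyp2b19 was dim, with GFPlow above background on 1 array only. RefSeq records listed for the Cyp3a41a probe also name Cyp3a41b, and the probe shares a record with that of Cyp3a11. Cyp4f16 was at -0.16.

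Most P450 genes on the array were not measured. No member of Cyp1a, Cyp1b, Cyp2a, Cyp2e, Cyp2f, Cyp4a or Cyp4b was measured, and 8 of 11 Cyp2c, 4 of 7 Cyp2d and 4 of 6 Cyp3a genes were not. Cyp1b1, Cyp2c37, Cyp2d12, Cyp2j9, Cyp4a10 and Cyp4x1 were above background on some array in some population, and the others on none. All 7 flavin monooxygenases were above background on no array. Absence of signal here gives no level, since these probes have only an upper bound set by the background.

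The aldo-keto reductases, which reduce aldehydes and ketones including retinaldehyde and steroids, had 7 of 14 genes measured. Of these 2 were at least 2-fold lower in GFPhigh, 0 higher, and the median was -0.31. Akr1b8, a relative of aldose reductase, had the lowest mean ratio of all 44 enzymes with loess, while Ugt1a6b was lower on array 1, Cyp2c65 on array 2, and Cyp2c66 in the mean with the processed signals. The first 30 bases of its probe (chr6:34318338-34318397), of those of its neighbour Akr1b3, which is aldose reductase itself, and of Akr1c14 (chr13:4089196-4089255) are given to separate these close relatives.
Akr1b8: aacggacatctccttcactaatttgacctg
Akr1b3: ttacccccctggaggactttaacacaagta
Akr1c14: tcaagacagactgctagactggatgtttat

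Akr1b8 had levels of 9.17 and 9.05 in GFPhigh and 11.78 and 11.94 in GFPlow. Its ratio was -2.61 and -2.89 (mean -2.75 ± 0.20, 6.74-fold lower in GFPhigh). Akr1b3, whose probe lies 64.4 kb away, was at -0.68 and -0.20 (mean -0.44), and its second probe at -0.42 and -0.50 (mean -0.46). The adjacent genes thus had ratios that did not overlap between them on either array. The third Akr1b gene under the file's names, Akr1b7, was above background on no array.

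Akr1c14, a hydroxysteroid dehydrogenase, had levels of 6.93 and 7.03 in GFPhigh and 8.34 and 8.83 in GFPlow. The ratio was -1.41 and -1.80 (mean -1.60 ± 0.27, 3.04-fold lower in GFPhigh), and GFPhigh was above background on array 1 only. For this dim probe the mean was -1.13 without background correction and -3.01 with the scanner software's processed signals, below 0 in each case. In the same cluster, Akr1c19 was split by its probes. The brighter, at chr13:4238234-4238293, gave -0.29 and -0.33, and the other, at chr13:4247501-4247560, gave -0.88 and -1.59 (mean -1.23 ± 0.51). Both are shown by their first 30 bases, because the size of the ratio depends on which is read.
Akr1c19, brighter probe: tgcaggattggtcaagtccattggtgtgtc
Akr1c19, other probe: cttcagccagagctgtgtccaccagtccgg
The brighter probe of Akr1c12 changed sign between the arrays, with -0.42 and 0.46, and RefSeq records listed for it also name Akr1c13. The other Akr1c12 probe gave -0.13 and -0.36, below 0 on both arrays. Akr1a4 (now Akr1a1), the aldehyde reductase and the highest of the family, was at 0.80 and -0.19, and at -0.45 and -0.47 in the mean with median and spike-in centring. Akr7a5, which reduces aflatoxin aldehydes, was at 0.49 and -0.69.

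All 4 carbonyl reductases were measured, none passed 2-fold on both arrays, and their median was -0.43. Cbr1 and Cbr3, cytosolic enzymes for ketones and quinones, have probes 80.6 kb apart on chromosome 16. Cbr1 was at -0.67 and -0.49. Cbr3, with log2 levels of 12.95 and 14.12 in GFPhigh and 14.29 and 14.07 in GFPlow, was at -1.34 on array 1 and 0.05 on array 2, so that its mean of -0.64 ± 0.98 does not stand for either array. The arrays were alike with the processed signals, at -0.64 and -0.73. Cbr3 passed 2-fold on both arrays with median centring (-1.07 and -2.23) and on array 1 with spike-in centring (-1.94 and -0.91). Cbr2 was at -0.29 and Cbr4, the mitochondrial carbonyl reductase, at -0.01.

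Nqo1, the quinone oxidoreductase that is a standard target of the oxidant-sensing factor NRF2, showed the same disagreement. Its levels were 9.43 and 10.37 in GFPhigh and 11.28 and 10.86 in GFPlow, lower in GFPhigh on both arrays but by very different amounts. The ratio was -1.84 on array 1 and -0.49 on array 2 (mean -1.17 ± 0.96), below 2-fold on array 2. It passed on both arrays with the processed signals (-1.64 and -1.36), with median centring (-1.53 and -2.28) and with spike-in centring (-2.44 and -1.46). Nqo2 was at -0.15 and -0.22 (mean -0.18 ± 0.05).

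The aldehyde dehydrogenases, which oxidise aldehydes to acids, had 10 of 20 genes measured, with 1 at least 2-fold higher in GFPhigh and 0 lower. With loess the mean of 7 of the 10 was above 0 and the family median was 0.17, with 0.05 on array 1 and -0.14 on array 2. The median was -0.36 with median centring and -0.61 with spike-in centring. Aldh6a1, the mitochondrial enzyme of valine and thymine breakdown, was the enzyme at least 2-fold higher in GFPhigh. It has a probe at chr12:85771835-85771894 that begins as follows.
Aldh6a1: taatcataatcaacagatttgaccagctac

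Aldh6a1 had levels of 10.30 and 10.66 in GFPhigh and 9.05 and 9.504 in GFPlow, so both GFPhigh values were above both GFPlow values. The ratio was 1.25 and 1.16 (mean 1.20 ± 0.06, 2.30-fold higher in GFPhigh), and it was 0.42 with spike-in centring, under 2-fold. With median centring it was 1.56 on array 1 and -0.53 on array 2, so that the arrays disagreed in sign. With that centring they disagreed in the same way for every enzyme above 0 on both arrays with loess. Aldh6a1 also fell short of 2-fold on array 2 with the scanner software's processed signals (0.95) and, narrowly, without background correction (0.998). Aldh1l1, the formyltetrahydrofolate dehydrogenase of folate metabolism, followed at 1.00 and 0.64 (mean 0.82 ± 0.26). It was at 1.29 and -0.80 with median centring and at 0.40 and -0.33 with spike-in centring, so that the arrays disagreed in sign under both.

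The remaining aldehyde dehydrogenases lay between -0.55 and 0.37. Aldh5a1, which breaks down succinic semialdehyde from GABA, had the lowest mean with loess, at -0.15 and -0.94. The neighbours Aldh1a1, which makes retinoic acid from retinaldehyde, and Aldh1a7, with probes 49.8 kb apart on chromosome 19, were at -0.23 and 0.98 for Aldh1a1 and at -0.49 and -0.49 for Aldh1a7. Aldh2, the mitochondrial enzyme for acetaldehyde, was at 0.71 and -0.26, and Aldh16a1 at 0.72 and -0.47 on its brighter probe, both with opposite signs on the arrays. The other Aldh16a1 probe gave 0.05 and 0.18. Aldh9a1 was at -0.31, Aldh3a2 at 0.06 and Aldh8a1 at 0.34 in the mean, the last of these below 0 with spike-in centring. Aldh1a2, Aldh1a3, Aldh1b1, Aldh3a1 and Aldh7a1 were among the 10 genes not measured.

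Of 6 carboxylesterases, which hydrolyse esters of drugs and lipids, 2 were measured, and the family median was -0.18. Ces2 (now Ces2c) was at -0.89 and -1.10 and was not well above background in GFPhigh on either array. Its 1.99-fold difference is a bound for the mean of the arrays with this processing. Without background correction the mean was -0.65. With the processed signals Ces2 passed 2-fold on both arrays, at -2.44 in the mean. Ces3 (now Ces1d) was at 1.03 and 0.23 with loess and at -0.15 in the mean with spike-in centring. Ces2 on array 1 (-0.89) and Cyp2s1 on array 1 (-0.84) were the genes just outside the 2-fold threshold, and Aldh6a1 (1.16 on array 2) and Sult1d1 (-1.24 on array 1) those just inside it.

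Among the conjugating enzymes, 3 of 12 UDP-glucuronosyltransferases were measured, with 1 at least 2-fold lower in GFPhigh and a median of -0.30. The gene is named Ugt1a6b, of the UGT1A group that conjugates phenols and bilirubin. UGT1A transcripts join different first exons to shared last exons, and the RefSeq records listed for this probe name Ugt1a10, Ugt1a6a and Ugt1a7c beside Ugt1a6b. The probe (chr1:90115472-90115531), shown because it may read several of these transcripts, begins as follows.
Ugt1a6b: ttgtgccggaatttgatgaaaaccaaagta

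This probe had levels of 7.55 and 8.57 in GFPhigh and 10.33 and 10.40 in GFPlow. The ratio was -2.78 and -1.83 (mean -2.31 ± 0.67, 4.94-fold lower in GFPhigh), with the GFPlow level alike on both arrays and the GFPhigh level different. A second Ugt1a6b probe, at chr1:90003830-90003889, and the probes of Ugt1a1 and Ugt1a9 were not measured, so which UGT1A transcript differs is not given by these arrays. In the UGT2B group, Ugt2b34 was at -0.16 and -0.44 and Ugt2b35 at 0.36 and 0.20 with loess. Ugt2b35 was below 0 at -0.27 with median centring and -0.50 with spike-in centring. The only probe of Ugt2b38 was marked as an outlier spot and left out.

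The sulfotransferases had 3 of 11 genes measured, all of the Sult1 group and all below 0 on both arrays, with 2 at least 2-fold lower in GFPhigh and a median of -1.48. Sult1b1, which sulfates phenols and thyroid hormone and is known from the gut, and Sult1d1, which sulfates catecholamines, lie side by side on chromosome 5. Their probes are 40.7 kb apart, at chr5:87943946-87944005 and chr5:87984658-87984717. Sult1b1 has a second probe at chr5:87942561-87942620, shown because it reads GFPhigh within background.
Sult1b1, brighter probe: gaacaacacttgagttctgcacagacattc
Sult1b1, other probe: atgtgacccacaatctgatacaacctcaag
Sult1d1: acacagtatatttttagttttagttcctaa

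Sult1b1 had levels of 7.63 and 8.12 in GFPhigh and 10.01 and 9.965 in GFPlow on the brighter probe. The ratio was -2.38 and -1.85 (mean -2.11 ± 0.37, 4.32-fold lower in GFPhigh). The other probe gave -0.68 and -0.88, in the same direction. It was not well above background in GFPhigh on either array, so its 1.63-fold difference is a bound for the mean of the arrays. Sult1d1 had levels of 7.78 and 7.57 in GFPhigh and 9.02 and 9.29 in GFPlow, with ratios of -1.24 and -1.72 (mean -1.48 ± 0.34, 2.79-fold lower). With median centring the ratios were -0.98 and -2.999, just under 2-fold on array 1. Sult1c2, with levels of 13.45 and 13.42 in GFPhigh and 14.34 and 14.16 in GFPlow, was at -0.89 and -0.74 (mean -0.81 ± 0.10), lower in GFPhigh on both arrays and under 2-fold.

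**Figure D3:**
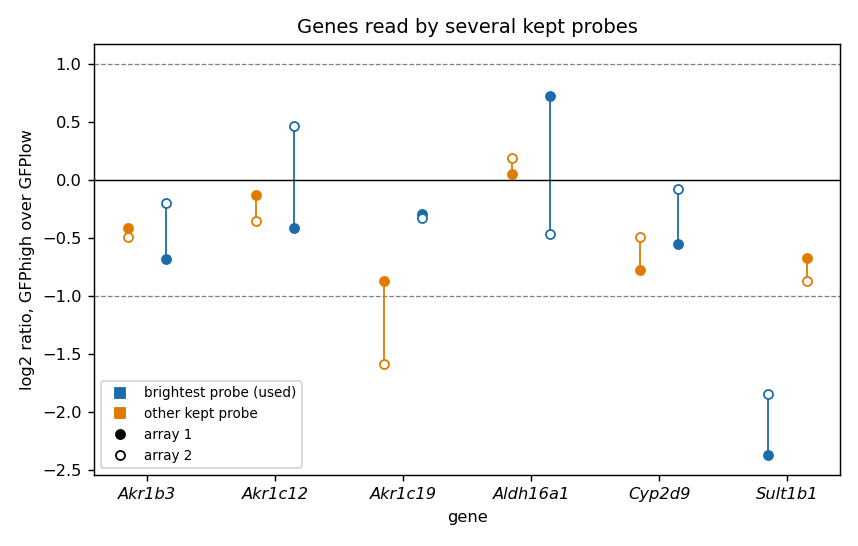
Log2 ratio of GFPhigh over GFPlow (vertical axis) for the 6 enzyme genes with several kept probes. Blue is the brighter probe, which stands for the gene, orange the other, filled circles are array 1 and open circles array 2. The probes of Akr1c19 (-0.31 and -1.23 in the mean) lie on different sides of -1 and those of Akr1b3 overlap, while the other probes of Sult1b1 and Cyp2d9 are not above background in GFPhigh and stand for bounds.

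Of the 8 enzymes lower in GFPhigh, 7 have a promoter in the RefSeq table (GRCm38.p6), Ugt1a6b being the exception. In the window from 250 bases before to 50 after the start, on either strand, the antioxidant core TGACNNNGC was found in 2 of these 7 (Cyp2c65 and Cyp2c66), against 14.0% of 27025 genes with a promoter. It was found in 5 of 39 measured enzymes with a promoter (12.8%). The dioxin response core GCGTG, which can share the last letters of that motif but did not in these enzymes, was found in 4 of the 7, in 11 of 39 measured enzymes (28.2%) and in 35.2% of all genes. Aldh6a1, the enzyme higher in GFPhigh, also holds GCGTG, 9 bases after its start. The 4 matches in enzymes lower in GFPhigh are shown in capitals within 30 bases.
Akr1b8, 26 bases before the start: ggaggggtctggGCGTGgcgcttgcagtaa
Akr1c14, 17 bases after the start: gtctcaagacctGCGTGgttgcatgagtaa
Sult1b1, 196 bases before the start: ctgttcagaactGCGTGcatggattgttct
Sult1d1, 47 bases before the start, match on the other strand: agctgttaacaaCACGCaaaacatggaggt
Over the measured enzymes both motifs were about as common as in the table of all genes or rarer. A match of these letters describes the sequence and does not show that a factor binds there.

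The genes that serve these enzymes were read from 8 lists. In the electron and haem supply of the P450s, 8 of 8 genes were measured and none passed 2-fold on both arrays (median 0.06, and -0.62 and -0.72 with median and spike-in centring). Por, the P450 reductase, was at 0.79 and 0.18 with loess and below 0 in the mean with both other scalings (-0.25 and -0.30), and Cyb5r1, a cytochrome b5 reductase, was at -0.89 and -0.91. Among genes that supply cofactors for conjugation, 1 of 8 measured passed, lower in GFPhigh (median -0.07). This was Ugdh, which makes UDP-glucuronic acid for the UDP-glucuronosyltransferases, at -1.43 and -1.40 (mean -1.41 ± 0.02, 2.66-fold lower). Gss, glutathione synthetase, was just under the threshold on array 2 at -1.05 and -0.98.

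Of 14 measured NRF2 target genes outside the enzyme families, 1 passed in each direction, and the list median was -0.47. Me1, the cytosolic malic enzyme that makes NADPH, was lower at -1.34 and -1.05 (mean -1.19 ± 0.20), with GFPhigh above background on 1 array. Sqstm1, the autophagy receptor p62, was higher at 1.27 and 1.27 with loess, and at 0.44 and 0.49 in the mean with median and spike-in centring. Of the 14 genes 10 were below 0 in the mean. Srxn1 (-0.95 and -1.15), Pgd (-0.98 and -1.24), Tkt (-1.33 and -0.81) and Txnrd1 (-0.23 and -1.51) passed 2-fold on 1 array. The list median was -0.96 with median and -1.25 with spike-in centring.

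Among 10 measured xenobiotic-sensing regulators, 1 was at least 2-fold lower in GFPhigh (median -0.21). This was Pparg, a fatty acid-sensing nuclear receptor, at -1.71 and -1.35 (mean -1.53 ± 0.25). Nfe2l2, which encodes NRF2, was at -0.87 and -0.70, under 2-fold. Nr1i2, the pregnane X receptor, was at -0.60 and -0.44, and Ahr, the dioxin receptor, at -0.23 and -0.45. Neither of the last pair was well above background in GFPhigh on either array. Their differences, 1.36-fold for Nr1i2 and 1.25-fold for Ahr, are bounds for the mean of the arrays. Nr1i3, Ppara, Hnf4a, Arnt, Ahrr and Cebpa were not measured.

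Of 6 measured xenobiotic transporters, 1 passed, lower in GFPhigh (median 0.09, and -0.51 and -0.69 with the other scalings). Abcc3, a basolateral exporter of glucuronides and other conjugates, was at -2.49 and -2.62 (mean -2.56 ± 0.10, 5.89-fold lower), with GFPhigh above background on 1 array. Slco3a1, an organic anion transporter, was at 0.73 and 0.72 with loess and at -0.06 in the mean with spike-in centring. Both genes differed little between the arrays.

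In the remaining lists, Rbp4, the plasma retinol carrier, was lower at -1.17 and -1.81 (mean -1.49 ± 0.45) among 8 measured alcohol dehydrogenase and retinoid genes (median 0.14, and -0.56 and -0.64 with median and spike-in centring). Maob, a mitochondrial amine oxidase, was lower at -1.49 and -1.21 (mean -1.35 ± 0.20) among 12 measured enzymes of other phase I and conjugating families (median -0.24). Of 17 P450 genes outside Cyp1 to Cyp4, 2 were measured and none passed. Over all 8 lists, GFPhigh was above background on 1 array only for Cyb5r1, Me1, Pparg, Rbp4 and Abcc3 among the genes named, and on neither array for Nr1i2 and Ahr.

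**Figure D4:**
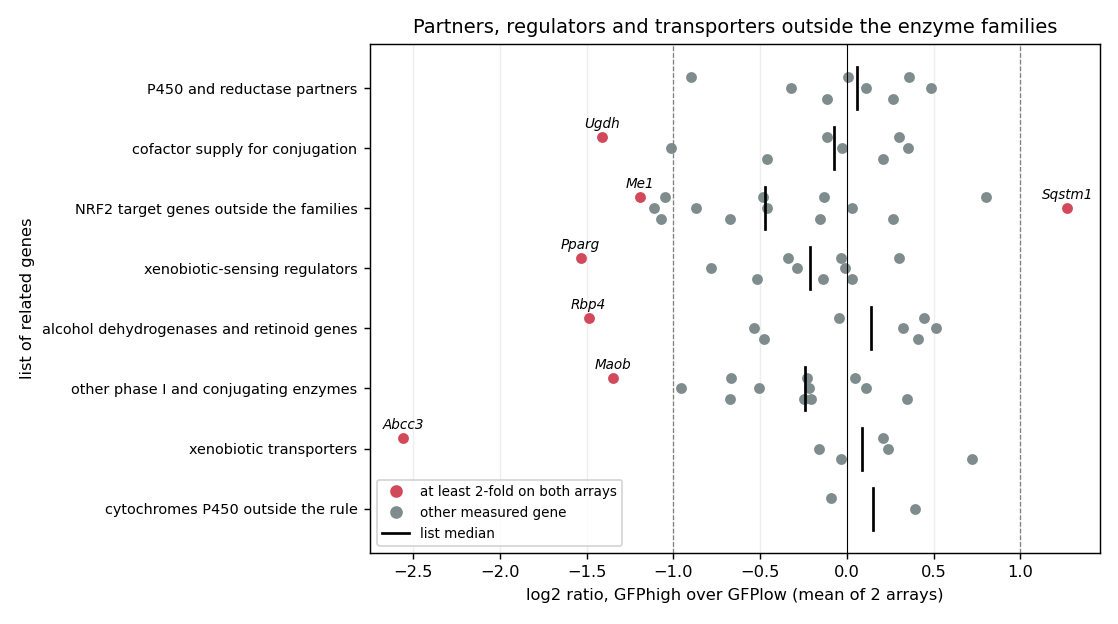
Mean log2 ratio of GFPhigh over GFPlow (horizontal axis, loess scaling) for the measured genes of the 8 related lists (rows). Red points passed 2-fold on both arrays, grey points did not, and black bars are list medians. Abcc3 at -2.56 and Ugdh at -1.41 lie left of the rest of their lists, and Sqstm1 at 1.27 is the red point on the right.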

How the data were processed

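The authors deposited scanner output of 2 arrays. Spot brightness is given as mean intensity with the local background median per channel, per the file headers. The deposited log10 ratio of Cy5 over Cy3 was made by the scanner software from its processed intensities (Feature Extraction 10.5.1.1 per the file headers, 9.5.3 per the submitters' processing notes). A deposited value table holds the same log10 ratios turned to GFPhigh over GFPlow (largest difference 0.0050). Its scale and direction were found by this match. The table's column medians are 0.0188 and -0.0458, with 22558 and 24241 empty spots on arrays 1 and 2. It served as an alternative.

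Intensities were corrected (normexp, offset 50) and normalised by loess within each array in limma 3.58.1 (R 4.3.3). Control spots had weight 0. Flagged outlier spots were left out, spots of a probe were averaged, and ratios were turned by the dyes in the labels. Probes needed a signal well above background on both arrays in the population with the brighter signal, and the kept probe with the highest average signal stood for its gene. The offset pulls ratios of dim probes towards 0. Levels are log2 intensities per channel after loess and Aquantile normalisation, and are compared only within a probe. Where 1 population was below background on both arrays, a bound was set from its own level or from that array's lowest level well above background, whichever was higher. The bound was taken on the mean of both arrays, so a single array or another background correction can give a smaller difference. The steps were tested on simulated data, in which equal numbers of bright probes were raised and lowered. That simulation does not check changes at dim probes or a shift of the zero point.

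Members keep the file's names. The RefSeq table (GRCm38.p6) named 25097 of the probes by accession and 156 by another accession, and 6233 symbols were unchanged, 1610 older and 8078 kept as in the file. Members and lists were chosen with earlier results of these data known. Named were members past 2-fold, the highest and lowest of each family, those next to the threshold, and related genes past 2-fold or of largest ratio. Other members were named after their values were seen, to account for all. The arrays share 1 slide, so no batch was compared.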

Additional observations from a re-analysis of the deposited data

How the results depend on the processing

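The alternatives were other background corrections and signals, other centrings, filters, probes of a gene and thresholds, the authors' value table, and each array alone. Leaving out probes whose records are shared with other genes was added after seeing the data. The number of enzymes lower in GFPhigh was 18 with spike-in centring, 5 without shared probes (Cyp2c65, Cyp2c66 and Ugt1a6b leave by construction) and 11 to 11 with 1 array left out. The number higher in GFPhigh was 0 without background correction, with processed signals, with median or spike-in centring, at 3-fold and in the value table, 2 at 1.5-fold, and 1 to 2 with 1 array left out. All 8 enzymes kept their call except Sult1d1 with median centring, Akr1c14 where both populations had to be above background, Sult1b1 with the dimmer probe (a bound, since GFPhigh was within background), Akr1c14 and Sult1d1 at 3-fold, and the 3 without shared probes.

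Over all genes, those higher in GFPhigh numbered 352 with processed signals and in the value table, 10 with median and 23 with spike-in centring, 438 at 1.5-fold, 32 at 3-fold, and 351 to 371 with 1 array left out. Those lower numbered 511 with processed signals, 508 in the value table, 1313 with spike-in centring, 140 with both populations above background, 583 at 1.5-fold, 72 at 3-fold, and 394 to 499 with 1 array left out. The enzymes' median was -0.19 without background correction, -0.38 with offset 16, -0.45 with processed signals and in the value table, -0.76 with median and -1.09 with spike-in centring, -0.0044 over 140 enzymes without a filter on dim probes, and -0.36 to -0.11 with 1 array left out. The cause of these shifts was not tested. Of 421 values of single enzymes and subfamily medians, 286 moved by no more than the SD of the arrays and 26 took the other sign, 0 of them among the 113 values of enzymes past 2-fold. No paired analysis was possible because both arrays hold the same pair of RNA samples.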

Other observations

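The array's gene names are older than the current symbols, and 18 further genes fit the same families only by their current RefSeq symbol. Of these, 5 were measured. Ces2b, a carboxylesterase of the same group as Ces2c, was at -1.39 and -1.65 (mean -1.52), at least 2-fold lower in GFPhigh on both arrays, and Ces2g was at -0.36 and -1.13 (mean -0.75). Of the CES1 group, Ces1e was at 1.47 and 0.44 (mean 0.95) with loess scaling and Ces1f at 1.28 and -0.36 (mean 0.46). Akr1b10 was at -0.19. Conversely, 8 of the enzymes counted above carry another symbol today.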
